A study of Mus musculus with 4 samples.

Results

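The genes described here are 10 of the Toll-like receptor pathway, chosen by name: the receptors Tlr1, Tlr2, Tlr3, Tlr4 and Tlr6, the adaptors Myd88, Ticam1 and Ticam2, the receptor chaperone Unc93b1 and the ubiquitin ligase Traf3. All 10 are among the 55487 annotated genes of the count table, and 7 of them held enough reads to be among the 13230 genes tested. RNA came from unstimulated LPC-HRas, a line of mouse liver cancer cells, in 2 groups of 2 libraries: cells that overexpress UBXN9 (UBXN9 1 and UBXN9 2) and control cells (control 1 and control 2). Both groups are the same line and differ in genotype as labelled; the vector and the number of clones behind each group are not stated in the labels. UBXN9 belongs to the UBX-domain proteins, many of which are cofactors of the ATPase VCP, and is encoded in the mouse by Aspscr1. Aspscr1 stood at 392 and 380 CPM in the UBXN9 libraries, against 92.1 and 115 CPM in control 1 and 2. CPM here is a gene's estimated count scaled to the usual common library total, with each library's total adjusted by its TMM factor.

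Toll-like receptors are membrane proteins that bind molecules typical of microbes or of damaged cells and signal through a cytoplasmic TIR domain. TLR2, with TLR1 or TLR6 as partner, binds bacterial lipopeptides at the cell surface, TLR4 binds lipopolysaccharide there, and TLR3 binds double-stranded RNA inside endosomes. Most of these receptors signal through the adaptor MyD88 towards NF-kB, TLR3 signals through TRIF (the product of Ticam1) towards NF-kB and IRF3, and TLR4 can use both. In the liver, receptors of this family are known both from hepatic macrophages and from the epithelial cells themselves.

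The start regions of 4 of these genes are shown because 3 of them rose (Tlr3, Tlr2 and Myd88) and 1 did not pass the test (Ticam1). Each runs 5′ to 3′ in the direction of the gene, from 250 bases before to 50 bases after the RefSeq start on GRCm38.p6. Capitals mark matches to the motifs searched: the core of the interferon-stimulated response element (GAAA, any 2 bases, GAAA), the interferon-gamma activated site (TTCNNNGAA) and the NF-kB consensus. The positions are chr8:45410331-45410630 for Tlr3, chr3:83841559-83841858 for Tlr2, chr9:119339969-119340268 for Myd88 and chr17:56276718-56277017 for Ticam1, all on the minus strand.
Tlr3: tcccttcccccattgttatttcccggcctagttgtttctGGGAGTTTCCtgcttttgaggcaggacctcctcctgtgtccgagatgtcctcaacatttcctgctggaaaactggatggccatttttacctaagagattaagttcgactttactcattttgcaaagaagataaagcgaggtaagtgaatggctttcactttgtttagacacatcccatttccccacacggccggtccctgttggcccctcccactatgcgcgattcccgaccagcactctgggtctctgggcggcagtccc
Tlr2: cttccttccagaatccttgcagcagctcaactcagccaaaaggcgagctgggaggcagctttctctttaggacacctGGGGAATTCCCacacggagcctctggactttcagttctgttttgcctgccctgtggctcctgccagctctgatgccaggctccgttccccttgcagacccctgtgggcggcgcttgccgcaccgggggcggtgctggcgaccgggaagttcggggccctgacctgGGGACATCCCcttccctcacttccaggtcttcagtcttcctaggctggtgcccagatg
Myd88: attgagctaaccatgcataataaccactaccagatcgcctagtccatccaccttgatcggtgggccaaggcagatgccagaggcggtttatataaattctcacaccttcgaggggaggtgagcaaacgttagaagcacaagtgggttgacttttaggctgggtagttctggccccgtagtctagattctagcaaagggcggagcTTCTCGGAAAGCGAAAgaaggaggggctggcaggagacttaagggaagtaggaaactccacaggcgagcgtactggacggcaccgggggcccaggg
Ticam1: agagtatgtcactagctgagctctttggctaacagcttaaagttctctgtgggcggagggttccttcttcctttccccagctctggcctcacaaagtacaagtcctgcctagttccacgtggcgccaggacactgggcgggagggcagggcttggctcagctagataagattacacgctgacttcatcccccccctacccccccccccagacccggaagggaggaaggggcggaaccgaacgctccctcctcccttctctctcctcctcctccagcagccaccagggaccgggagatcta

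Both strands were searched in the 9 start regions that the RefSeq table holds for 7 of the 10 genes. The Tlr3 region held 1 NF-kB match, GGGAGTTTCC, which begins 211 bases before the start. The Tlr2 region held overlapping NF-kB matches from 173 bases before the start and a further one, GGGACATCCC, across the start itself. Myd88 held the interferon element GAAAGCGAAA, which begins 40 bases before the start and overlaps an activated site, TTCTCGGAA, that begins 46 bases before it. Ticam1 held no match to the 3 motifs in its window. Matches were not limited to genes that rose: Traf3, which did not pass the test, held the NF-kB match GGGGATTTCC, which begins 10 bases before its start. The windows of Tlr6 held 2 interferon elements and 2 activated sites, and those of Tlr1 held 1 activated site, although both genes were nearly silent. Among all 32851 start regions of this length in the table, 3.44% held the interferon element, 8.3% the activated site and 8.46% the NF-kB consensus. The RefSeq starts of Tlr3 and Myd88 lie inside the GENCODE gene bounds given with their values, so other start sites of these genes are outside the windows shown. Only exact matches were counted, so stretches that differ from a motif in any fixed letter were not marked, in Tlr3 as in the other genes. A match to these letters describes the sequence and was not tested as a binding site.

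Setting UBXN9-overexpressing against control cells asks which of these genes differ when UBXN9 is raised. Of the 7 tested, Tlr3, Tlr2, Myd88 and Tlr4 rose, none fell, and Ticam1, Unc93b1 and Traf3 did not pass (edgeR quasi-likelihood test, adjusted p under 0.05 over all 13230 genes). Among all genes tested, 7.44% were called, 5.06% as higher and 2.38% as lower. The 3 genes outside the test, Tlr1, Tlr6 and Ticam2, had at most 10 counts in any library. With 2 libraries a group, an exact two-sided permutation test cannot give a p below 0.333, and nothing in the labels says that the libraries came from separate cultures, so a p-value here reflects no more than the spread of these 4 libraries, which may be technical.

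**Figure D1:**
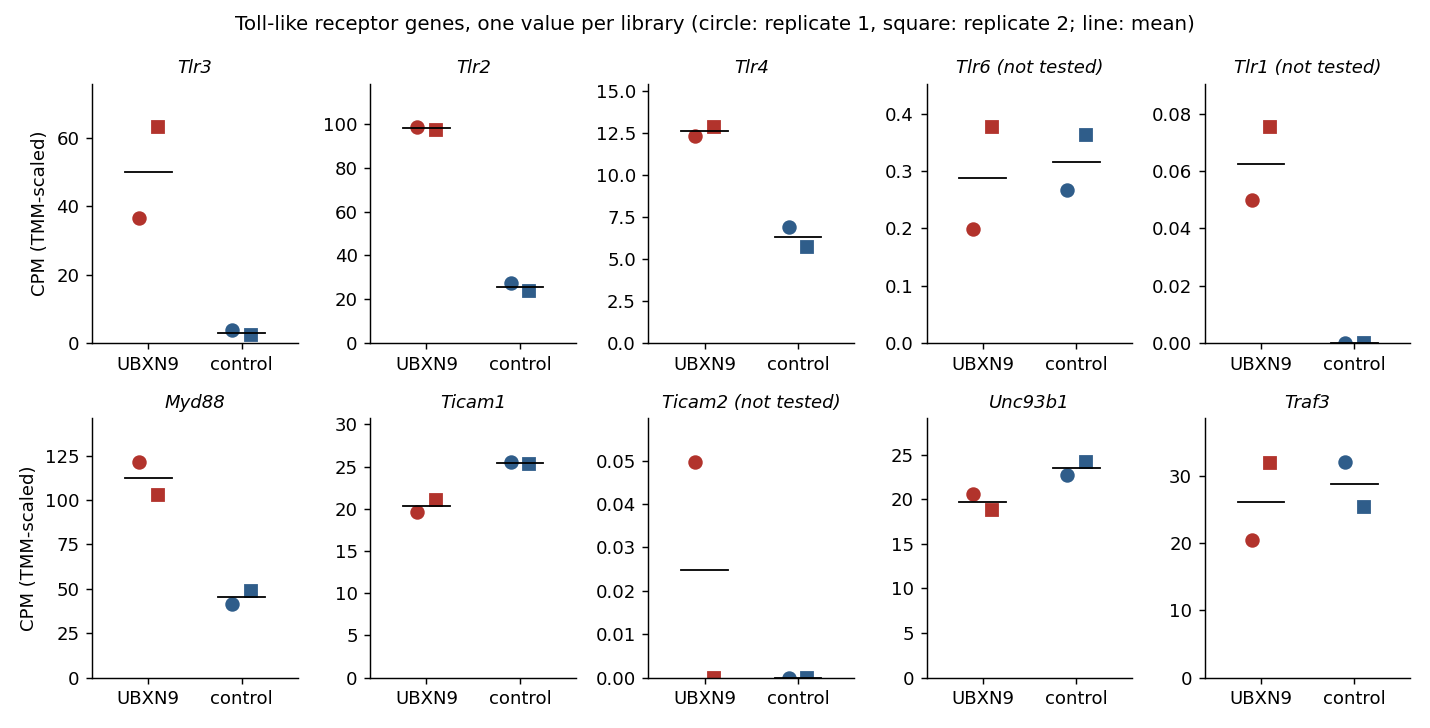
CPM of each of the 10 genes in each library, with UBXN9-overexpressing libraries left of control libraries, a circle for replicate 1, a square for replicate 2 and a line at the mean of 2. Each panel has its own linear axis from 0; both UBXN9 values lie above both control values for Tlr3, Tlr2, Tlr4 and Myd88 and under them for Ticam1 and Unc93b1, while the Traf3 values overlap and the 3 panels marked as not tested hold at most 10 counts a library.

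Tlr3, which encodes the sensor of double-stranded RNA in endosomes (ENSMUSG00000031639, chromosome 8, 45395665 to 45411080, GRCm38), had 36.7 and 63.3 CPM in UBXN9 1 and 2, against 3.66 and 2.36 CPM in control 1 and 2. Those levels come from 738 and 1679 counts in the UBXN9 libraries and 96 and 52 counts in the controls. The lower UBXN9 library lay well above the higher control, although the pair of UBXN9 libraries differed from each other 1.72-fold. The change was 16.5-fold, with a log2 fold change of 4.04 (SE 0.35, 95% interval 3.21 to 4.88, edgeR adjusted p = 0.00104). Leaving out 1 library at a time gave log2 fold changes between 3.60 and 4.40. Gm45542, an antisense gene, shares 7.32% of the Tlr3 exon bases but had at most 1 count in any library.

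The libraries also differed by transcript length. Across 13219 genes (genes are not independent of each other) the log2 difference of UBXN9 2 minus UBXN9 1 had a Spearman correlation of 0.423 with exon length, and that of control 2 minus control 1 one of -0.325. The difference of the groups had a correlation of -0.011. Tlr3 has 5207 exon bases and is longer than 61.7% of the tested genes; the part of length in its spread was not tested.

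Of the surface receptors, Tlr2, which pairs with TLR1 or TLR6 to bind lipopeptides (ENSMUSG00000027995, chromosome 3, 83836272 to 83841767), had 98.7 and 97.4 CPM in UBXN9 1 and 2, against 27.5 and 23.9 CPM in control 1 and 2. The groups were far apart relative to the difference within each of them. The rise was 3.82-fold, with a log2 fold change of 1.93 (SE 0.16, 95% interval 1.54 to 2.32, edgeR adjusted p = 0.000915). It lay between 1.83 and 2.03 when each library was left out in turn.

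Tlr4, the lipopolysaccharide receptor (ENSMUSG00000039005, chromosome 4, 66827584 to 66930284), had 12.3 and 12.9 CPM in UBXN9 1 and 2, against 6.91 and 5.72 CPM in control 1 and 2. The groups did not overlap, as was the case for 50.6% of all genes tested, 25% with UBXN9 values higher and 25.6% with them lower. The rise was 1.99-fold, with a log2 fold change of 1.00 (SE 0.23, 95% interval 0.45 to 1.54), and its edgeR adjusted p of 0.0488 lay just under the threshold. The call was lost without control 1 (log2 1.13, adjusted p = 0.167), without control 2 (log2 0.87, adjusted p = 0.454) and with a block for the replicate number (adjusted p = 0.111). It was also lost with upper-quartile factors (adjusted p = 0.061), with library size alone (0.101), with a filter of 5 CPM (0.0544) and at a threshold of 0.01. Over all alternatives its adjusted p ran between 0.00117 and 0.454.

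Tlr1 and Tlr6 encode the partners of TLR2. Tlr1 had 1 and 2 counts in UBXN9 1 and 2, against 0 in both controls, and Tlr6 had 4 and 10 counts in UBXN9 1 and 2, against 7 and 8 in control 1 and 2. Both genes were near the floor of detection in all 4 libraries, and no fold change is given for them. A count of 0 over both control libraries allows up to 3 counts for Tlr1.

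Among the adaptors, Myd88, which links most Toll-like and interleukin-1 receptors to their kinases (ENSMUSG00000032508, chromosome 9, 119335934 to 119341411), had 122 and 103 CPM in UBXN9 1 and 2, against 41.5 and 48.9 CPM in control 1 and 2. The lower UBXN9 library was above the higher control. The rise was 2.48-fold, with a log2 fold change of 1.31 (SE 0.17, 95% interval 0.90 to 1.73, edgeR adjusted p = 0.00606), and between 1.19 and 1.43 with each library left out in turn. Acaa1a, on the opposite strand, shares 290 of the 2576 exon bases of Myd88. Acaa1a had 162 and 144 CPM in UBXN9 1 and 2, against 88.8 and 112 CPM in control 1 and 2 (log2 fold change 0.61, edgeR adjusted p = 0.093). Whether counting used strand is not given in the sources used here, so reads in the shared part may belong to either gene.

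Ticam1, which encodes TRIF, the adaptor of TLR3 (ENSMUSG00000047123, chromosome 17, 56269319 to 56276786), had 19.7 and 21.1 CPM in UBXN9 1 and 2, against 25.6 and 25.3 CPM in control 1 and 2. Both UBXN9 values lay under both control values, but the log2 fold change of -0.32 (SE 0.18, 95% interval -0.74 to 0.09) did not pass (edgeR adjusted p = 0.358). Ticam2, which encodes TRAM, the bridge between TLR4 and TRIF, had 1 count in UBXN9 1 and 0 in the other libraries, and it shares 838 exon bases with Tmed7 on the same strand. Tmed7 itself had 1147 and 1515 counts in UBXN9 1 and 2, against 1631 and 1104 in control 1 and 2.

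Unc93b1, the chaperone that carries nucleic-acid-sensing receptors from the endoplasmic reticulum to endosomes (ENSMUSG00000036908, chromosome 19, 3935186 to 3949340), had 20.6 and 18.8 CPM in UBXN9 1 and 2, against 22.7 and 24.2 CPM in control 1 and 2. Both UBXN9 values lay under both control values, and the log2 fold change of -0.25 did not pass (95% interval -0.68 to 0.18, edgeR adjusted p = 0.493). Traf3, a ubiquitin ligase that joins TRIF to the kinases of IRF3 (ENSMUSG00000021277, chromosome 12, 111166370 to 111267153), had 20.5 and 31.9 CPM in UBXN9 1 and 2, against 32.1 and 25.45 CPM in control 1 and 2. The groups overlapped, and the log2 fold change was -0.13 (95% interval -0.73 to 0.47, edgeR adjusted p = 0.834). Its sign turned without UBXN9 1 (0.15) and without control 1 (0.036). These intervals leave room for changes of either direction in Unc93b1 and Traf3, and do not show that the genes stayed the same.

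**Figure D2:**
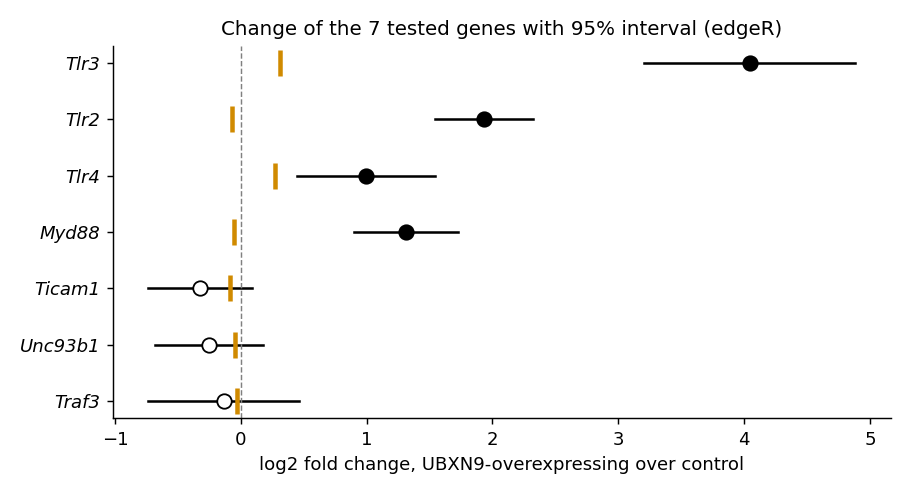
Log2 fold change of UBXN9-overexpressing over control cells for the 7 tested genes, with 95% intervals from edgeR; filled points passed an adjusted p of 0.05, open points did not, and the orange bar is the median of all tested genes on the same chromosome. Tlr3 lies at 4.04, Tlr2 at 1.93, Myd88 at 1.31 and Tlr4 at 1.00, and the intervals of Ticam1, Unc93b1 and Traf3 include 0.

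Tlr3 and Tlr4 lie on the 2 chromosomes with the highest median change. The median log2 fold change of tested genes was 0.31 on chromosome 8, where 8.88% rose, and 0.27 on chromosome 4, where 7.69% rose, against -0.0056 over all tested genes. Relative to the median of its own chromosome, the log2 fold change was 3.73 for Tlr3, 0.73 for Tlr4, 2.00 for Tlr2 and 1.37 for Myd88. Within 500 kb of Tlr3 there were 3 tested genes, of which Cyp4v3, a cytochrome P450 gene, rose 3.40-fold (edgeR adjusted p = 0.00689). The log2 fold change was 1.11 for Fat1 (adjusted p = 0.144) and 0.43 for Fam149a (adjusted p = 0.192), and neither passed. Of the 3 tested neighbours of Tlr2 and the 9 of Myd88 in the same distance none passed, and Tlr4 had no tested neighbour. The part of chromosome position in the changes of Tlr3 and Tlr4 was not tested.

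Levels of different genes were compared per kilobase of exon. In control cells Myd88 was highest, at 17.5 ± 2.03 CPM per kilobase, and Tlr2 (8.52 ± 0.85), Ticam1 (8.51 ± 0.068) and Unc93b1 (7.74 ± 0.36) followed (SD, n = 2). The spread of Tlr2 took in both Ticam1 and Unc93b1, while Ticam1 stood above Unc93b1 by more than the spread of either. Traf3 had 3.92 ± 0.64 and Tlr4 1.14 ± 0.15 in the same cells and on the same scale, and Tlr3, at 0.58 ± 0.18, was the lowest of the 7. In UBXN9-overexpressing cells Myd88 had 43.55 ± 5.14 and Tlr2 32.5 ± 0.31 CPM per kilobase. Tlr3 came next at 9.61 ± 3.61, with Ticam1 at 6.81 ± 0.33 and Unc93b1 at 6.50 ± 0.43 within its spread. Traf3 had 3.56 ± 1.10 and Tlr4 2.27 ± 0.065. By this level Tlr3 ranked 3 in UBXN9-overexpressing cells, against 7 in control cells, although its SD in UBXN9-overexpressing cells spans the genes ranked just below it.

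Within the summed level of the 5 receptors per kilobase, Tlr3 made up 16.8% and 25.9% in UBXN9 1 and 2, against 6.32% and 4.77% in control 1 and 2. Tlr2 held most of the sum in every library, 77.8% and 68.9% in UBXN9 1 and 2, against 81.9% and 83.4% in control 1 and 2. The sum itself was 42.1 and 46.9 CPM per kilobase in UBXN9 1 and 2, against 11.1 and 9.50 in control 1 and 2. For the adaptors, the level of Myd88 per kilobase was 7.18 and 5.67 times that of Ticam1 in UBXN9 1 and 2, against 1.88 and 2.24 times in control 1 and 2. These groups of ratios did not overlap, as follows from Myd88 lying above and Ticam1 below both controls in both UBXN9 libraries. The ratio is therefore not a separate result.

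**Figure D3:**
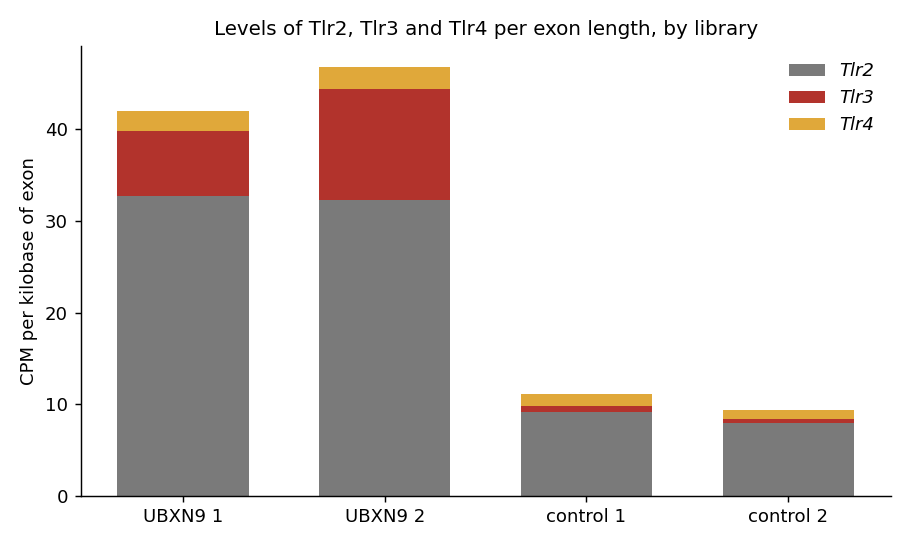
Stacked levels of Tlr2, Tlr3 and Tlr4 in CPM per kilobase of exon, 1 bar per library, with UBXN9 libraries left of controls. The bars reach above 40 in both UBXN9 libraries and about 10 in both controls, and the Tlr3 layer, at 7.06 and 12.2 in UBXN9 1 and 2, is 0.70 and 0.45 in control 1 and 2.

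Tlr3 was set against each of the other 6 tested genes by the log2 ratio of their levels within each library. Against Tlr4 per kilobase, the ratio was 1.66 and 2.39 in UBXN9 1 and 2, against -0.81 and -1.15 in control 1 and 2, so that Tlr3 stood above Tlr4 in the UBXN9 libraries and under it in the controls. Against Ticam1 it was 0.10 and 0.78 in UBXN9 1 and 2, against -3.58 and -4.18 in control 1 and 2. For all 6 genes both UBXN9 ratios lay above both control ratios, as was the case for 98.9% of all genes set against Tlr3, so the count says nothing particular about these 6. The exact permutation p was 0.333 for each, the smallest that 2 against 2 libraries can give.

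**Figure D4:**
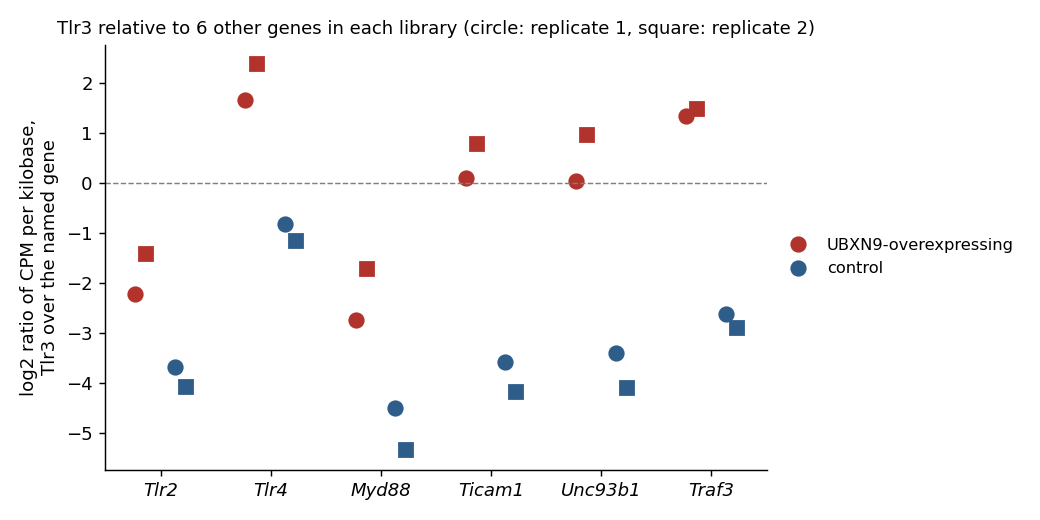
Log2 ratio of CPM per kilobase of Tlr3 over each of 6 other genes in each library, red for UBXN9-overexpressing, blue for control, circles for replicate 1 and squares for replicate 2. The UBXN9 points lie above the control points for every gene, with the smallest gap against Tlr2 and Myd88.

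The rise of Tlr3 exceeded that of the surface receptors by 2.06 on the log2 scale for Tlr2 (95% interval 0.83 to 3.30, limma adjusted p = 0.00109) and by 3.003 for Tlr4 (1.98 to 4.02, adjusted p = 1.09e-08). It exceeded that of the adaptor Myd88 by 2.69 (1.396 to 3.98, adjusted p = 4.75e-05). Against the genes that did not pass, the difference was 4.32 for Ticam1 (3.21 to 5.43), 4.25 for Unc93b1 (3.15 to 5.35) and 4.16 for Traf3 (3.03 to 5.29), with a largest limma adjusted p of 2.29e-12 among them. Tlr3 enters every such difference, and 98.8% of all genes passed this test (98.6% with the Tlr3 change the higher one), so these adjusted p-values rest on the spread of Tlr3 over 4 libraries and are too small. The call against Tlr2 was lost without UBXN9 2 (1.66, adjusted p = 0.0566), without control 1 (2.27, 0.0532) and without control 2 (1.86, 0.112). It was also lost when the replicate number was fitted as a block (2.06, 0.0817), and the call against Myd88 was lost without control 2 (2.26, 0.0603). Tlr3 was named for this comparison with its change already known.

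By likeness of the log2 CPM profile over the 4 libraries, the 5 tested genes nearest to Tlr3 were Oas2, Cybb, Slfn5, Gbp7 and Ifi205, on chromosomes 5, X, 11, 3 and 1. Oas2, an oligoadenylate synthetase, was nearest, at a Euclidean distance of 0.24, with 69.1 and 116 CPM in UBXN9 1 and 2, against 7.75 and 5.44 CPM in control 1 and 2. Gbp7, a guanylate-binding protein, had 45.7 and 62.3 CPM in UBXN9 1 and 2, against 5.38 and 2.86 CPM in control 1 and 2. Oas2, Slfn5, Gbp7 and Ifi205 belong to families known as interferon-inducible, and Cybb encodes the catalytic subunit of the phagocyte NADPH oxidase. Nearest to Tlr4 were Gm35558, Vopp1, Rmdn2, Mppe1 and Letm2, none of which passed the edgeR test (adjusted p between 0.0551 and 0.222). With 4 libraries a near profile is a description of these values.

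Other genes of the pathway were taken from lists of 97 genes, of which 78 were tested; 12 rose, or 15.4%, and 2 fell, or 2.56% (edgeR), and the median of their log2 fold changes was 0.30. Over all tested genes 5.06% rose and 2.38% fell, with a median of -0.0056, so the share that fell was near that of all genes. On the lists 33 genes were called without UBXN9 1, 24 without UBXN9 2 and 9 without control 2, against 14 with all libraries. Over the whole table the same omissions gave 2561, 2782 and 508 called genes, against 984 with all libraries. Receptors other than those above were nearly silent, and none was deep enough to test with all libraries. With UBXN9 1, control 1 or control 2 left out, 1 of these 7 receptors entered the test each time. The log2 fold changes were 2.62, 3.65 and 1.46 in that order, each from a fit with 1 library in a group. Tlr7, an endosomal receptor of single-stranded RNA named after its values were seen, was the highest of these receptors. It had 7 and 24 counts in UBXN9 1 and 2, against 6 and 1 in control 1 and 2. Tlr9, Tlr11 and Tlr13 had 0 counts in all libraries.

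Co-receptors and ligand carriers had 0 of 4 tested genes called, against 7.44% among all tested genes, with a median log2 fold change of -0.08. With 1 library left out in turn this median lay between -0.20 and 0.24, and some genes passed as lower without UBXN9 1. Lbp, the lipopolysaccharide-binding protein, had 12.9 and 12.1 CPM in UBXN9 1 and 2, against 18.5 and 21.5 CPM in control 1 and 2, and did not pass (log2 fold change -0.68, edgeR adjusted p = 0.101). Cd14, which hands lipopolysaccharide to TLR4, had 61.9 and 56.1 CPM in UBXN9 1 and 2, against 49.95 and 50.3 CPM in control 1 and 2, and Ly96, the TLR4 subunit MD-2, had 1.24 and 2.60 CPM in UBXN9 1 and 2, against 1.56 and 1.45 CPM in control 1 and 2. Neither passed (adjusted p = 0.458 and 0.715), and both were named after their values were seen. Of the other TIR adaptors, 0 of 2 tested passed, and Tirap, the bridge between MyD88 and TLR2 or TLR4, had a log2 fold change of -0.40 (edgeR adjusted p = 0.372).

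Genes of receptor trafficking and cleavage had 0 of 8 called, against 7.44% among all tested genes, with a median log2 fold change of -0.22. With 1 library left out in turn this median lay between -0.25 and -0.009. Calls that appeared with a UBXN9 library left out differed in direction, lower without UBXN9 1 and higher without UBXN9 2. Ctsl, an endosomal protease that cleaves Toll-like receptors, had 608 and 542 CPM in UBXN9 1 and 2, against 879 and 962 CPM in control 1 and 2 (log2 fold change -0.68, edgeR adjusted p = 0.0718). Kinases and ubiquitin ligases of the pathway had 0 of 22 called, against the same 7.44% among all tested genes, with a median of 0.23. With 1 library left out in turn this median lay between 0.19 and 0.40. Some of these kinases and ligases passed without UBXN9 1 or without UBXN9 2. Irak2, a kinase recruited by MyD88, had the smallest p, with 28.8 and 25.4 CPM in UBXN9 1 and 2, against 14.5 and 17.1 CPM in control 1 and 2 (log2 fold change 0.77, edgeR adjusted p = 0.0626).

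Of 14 tested genes on the list of inhibitors 3 rose and 1 fell, against 5.06% higher and 2.38% lower among all tested genes. The median of the 14 was 0.44 on the log2 scale. The list is broad and also holds genes with other roles, among them Tbkbp1, the 1 that fell, and the receptor gene Il1rl1. With 1 library left out in turn the median of the list lay between 0.37 and 0.55, and the number of genes called varied. Nlrc5, better known as the transactivator of class I antigen presentation genes, had 114 and 179 CPM in UBXN9 1 and 2, against 2.98 and 2.00 CPM in control 1 and 2 (58.5-fold, edgeR adjusted p = 0.000262). Socs1, a suppressor of cytokine signalling, rose 2.48-fold (adjusted p = 0.00619), and Tnip1, a partner of the deubiquitinase A20, rose 1.93-fold (adjusted p = 0.0199, and 0.169 without control 1 and 0.0843 without control 2). Tbkbp1, an adaptor that binds the kinase TBK1, fell to 8.96 and 7.96 CPM in UBXN9 1 and 2, against 24.4 and 27.9 CPM in control 1 and 2 (log2 fold change -1.63, edgeR adjusted p = 0.00482).

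Transcription factors at the end of the pathway had 4 of 13 called, all higher, against 5.06% higher among all tested genes. The median of the 13 was 0.33 on the log2 scale. With 1 library left out in turn this median lay between 0.33 and 0.36. Fewer of these factors were called with either control left out, and more with either UBXN9 library left out. Irf7, an interferon regulatory factor that activates type I interferon genes, had 672 and 593 CPM in UBXN9 1 and 2, against 103 and 101 CPM in control 1 and 2, a 6.22-fold rise (edgeR adjusted p = 0.000389). Irf5 rose 6.39-fold (adjusted p = 0.000768), Irf1 3.66-fold (0.00136) and the NF-kB subunit gene Relb 1.59-fold (0.0407, and 0.44 and 0.363 with control 1 or control 2 left out, and 0.171 with a replicate block). Irf3, the factor activated downstream of TRIF and named after its values were seen, had 37.8 and 31.0 CPM in UBXN9 1 and 2, against 32.0 and 37.8 CPM in control 1 and 2, and its groups overlapped (edgeR adjusted p = 0.971).

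Inflammatory output genes of the pathway had 5 of 12 called, all higher, against 5.06% higher among all tested genes. The median of the 12 was 0.78 on the log2 scale. With 1 library left out in turn this median lay between 0.60 and 0.94. Fewer genes were called with either control left out, and more with either UBXN9 library left out. Cxcl1, among the called genes and named after its values were seen, rose 1.655-fold (edgeR adjusted p = 0.0361, and 0.164 with a replicate block). Cxcl10, a T cell chemokine, rose 9.40-fold (edgeR adjusted p = 0.000915), Cxcl2, a neutrophil chemokine, 3.85-fold (0.0101) and Tnf, the cytokine TNF, 3.64-fold (0.0282, and 0.112 without control 1 and 0.146 without control 2). Ifnb1, interferon beta, had 28 and 45 counts in UBXN9 1 and 2, against 2 and 5 in control 1 and 2 (10.2-fold, edgeR adjusted p = 0.0206). It was 6.66-fold without control 1 (adjusted p = 0.109) and 19.1-fold without control 2. Of the interleukin-1 receptor family, whose receptors share MyD88, 1 of 3 tested genes on the list fell and none passed as higher. Over all tested genes 2.38% fell. Il1rl1, the interleukin-33 receptor, was counted with the inhibitors instead and did not pass (1.75-fold, edgeR adjusted p = 0.0687). Il1r1, the interleukin-1 receptor, fell to 27.3 and 32.95 CPM in UBXN9 1 and 2, against 63.2 and 53.5 CPM in control 1 and 2 (log2 fold change -0.95, edgeR adjusted p = 0.0253, and 0.161 without control 1 and 0.0632 without control 2). Without UBXN9 1, 2 genes of this group rose and 1 fell.

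**Figure D5:**
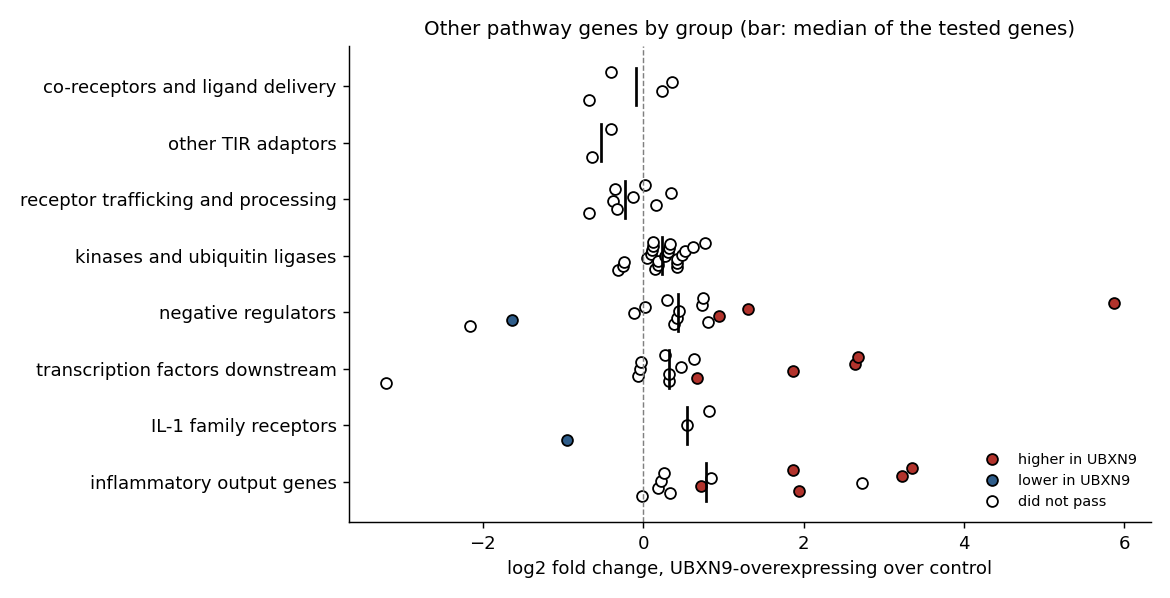
Log2 fold changes of the tested pathway genes outside the 10, by group, with red for genes that rose, blue for genes that fell, white for genes that did not pass, and a bar at the group's median. Called genes lie among the genes listed as inhibitors, transcription factors, interleukin-1 receptors and inflammatory output genes. None lies among the kinases, where all values lie between -0.31 and 0.77. Among all tested genes 7.44% were called.

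Libraries held 21814969 and 26292686 estimated counts in UBXN9 1 and 2, against 24677770 and 22147475 in control 1 and 2. The liver progenitor markers Sox9 and Spp1 were abundant in all 4 libraries (at least 168 and 2198 CPM), whereas Epcam and Krt7 had at most 4 counts and Prom1 0, and Alb, the main hepatocyte marker, had 0. Of the 4 tested progenitor and biliary markers Krt19 and Cd24a fell (log2 fold changes of -1.69 and -1.05, edgeR adjusted p = 0.0294 and 0.0102), and both calls were lost without control 2 (adjusted p = 0.143 for Krt19 and 0.0523 for Cd24a). None of the 2 tested hepatocyte and 2 tested endothelial markers passed. Myeloid cells carry several of these receptors, and the sum of 10 myeloid markers was 75.7 and 66.5 CPM in UBXN9 1 and 2, against 57.0 and 57.3 CPM in control 1 and 2, most of it from Cd14. Ptprc, which marks all leukocytes, had 3 and 1 counts in UBXN9 1 and 2, against 0 in both controls; of the list's 4 tested markers 1, Lyz2, rose (3.53-fold, edgeR adjusted p = 0.0408, and 0.283 without control 2). The 8 lymphoid markers had at most 2 counts in any library. Whether cells of another type take part in the changes of Tlr2, Tlr4 or Tlr3 was not tested. In such bulk samples a change in the number of cells that express a gene and a change in RNA per cell cannot be told apart.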

How the data were processed

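Per the labels, total RNA was made into libraries with the TruSeq RNA Sample Prep Kit v2 and read on an Illumina HiSeq system. Values in the authors' table are estimated counts per gene, deposited without scaling as far as the values show; 10.05% to 12.15% of the values in a library are not whole, so values were rounded. HISAT2 2.1.0, HTSeq and GRCm38.p6 are named in the submitters' processing notes; settings and annotation are not given in the sources used here. Of 55728 entries, 241 unannotated loci, with 0.302% to 0.535% of the counts, were left out, and 55227 identifiers were found in GENCODE M21.

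Both groups entered 1 fit in edgeR 4.0.16, run in R 4.3.3 (TMM, filterByExpr, quasi-likelihood F test, two-sided, Benjamini-Hochberg over all tested genes). Intervals are 95%. Differences from Tlr3 were fitted over all genes with limma 3.58.1 on log2 CPM (prior count 2). Levels per kilobase use the union of exons. The fit was also run on counts simulated gene by gene. Those lack the length-related differences between libraries described above, so that run does not show how the fit performs on these data. Named genes were the 10, Aspscr1, up to 4 called genes of each list or else that of smallest p, the 5 profiles nearest to Tlr3 and to Tlr4, and called neighbours within 500 kb of a called gene. The genes and lists were chosen with earlier results of these data known. Alternatives were other scalings and filters, DESeq2 1.42.0, limma-voom, a replicate block, a threshold of 0.01 and each library left out. Figures were drawn with matplotlib 3.10.9.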

Additional observations from a re-analysis of the deposited data

How the results depend on the processing

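The calls of Tlr3, Tlr2 and Myd88 and their direction held under all 14 alternatives tried for them, with log2 fold changes of 3.60 to 4.40 for Tlr3 over the libraries left out. Members called numbered 4, and 3 or 4 under each alternative, Tlr4 being the one lost. Traf3, not called, turned sign without control 1 (0.036) and without UBXN9 1 (0.15), with a range of -0.49 to 0.15 over the libraries left out. The count of genes changed over the whole table was 984 (669 higher, 315 lower), 1827 with no filter and 398 at a threshold of 0.01, and 508 to 2782 with a library left out: with control 2 left out it was 508, with control 1 702, with UBXN9 1 2561 and with UBXN9 2 2782. The count over the pathway lists was 14, 25 with no filter, 24 by DESeq2, 7 at a threshold of 0.01, and 9 to 33 with a library left out. Differences of Tlr3 from Tlr2 lay between 1.66 and 2.47 with a library left out, and those from Myd88 between 2.17 and 3.20. With a library left out, its group holds 1 library, and the fit takes its spread from the group that still has 2. The causes were not tested, apart from the number of genes and libraries that each alternative itself changes. From the edgeR standard errors, an alternative chosen after seeing the data, the difference was 2.11 for Tlr2 (95% interval 1.19 to 3.04) and 2.73 for Myd88 (1.80 to 3.67).

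The libraries share replicate numbers and nothing in the labels pairs them. With a replicate block 932 genes changed over the whole table and 15 over the lists; the block ended the call of Tlr4 and that of the difference between Tlr3 and Tlr2, at 2.06. Deviations of same-numbered libraries had a correlation of -0.373, and with the pairing crossed, chosen after seeing the data, 3137 genes changed, 35 of them on the lists. Depth limits Tlr1, Tlr6 and Ticam2, with at most 10 counts a library; floors and intervals cover counting error or library spread only.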

Other observations

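Interleukin receptor genes that share MyD88 with the Toll-like receptors were unevenly present, as seen after the values were known. Il18rap, the accessory chain of the interleukin-18 receptor, had 202 and 222 CPM in UBXN9 1 and 2, against 158 and 133 CPM in control 1 and 2 (log2 fold change 0.55, edgeR adjusted p = 0.107). Il18r1, the chain that binds interleukin-18, had 5 and 13 counts in UBXN9 1 and 2, against 5 and 4 in control 1 and 2. Il1rl1, the interleukin-33 receptor, had 243 and 300 CPM in UBXN9 1 and 2, against 179 and 131 CPM in control 1 and 2 (1.75-fold, edgeR adjusted p = 0.0687).

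Myeloid transcripts did not share 1 pattern over the libraries, and the following were named after their values were seen. Csf1r, the macrophage growth factor receptor, had 56 and 8 counts in UBXN9 1 and 2, against 12 and 14 in control 1 and 2, and Ctss, a protease of antigen-presenting cells, had 31 and 3 counts in UBXN9 1 and 2, against 1 and 2 in control 1 and 2. Tyrobp, a signalling adaptor of myeloid receptors, had 16 and 0 counts in UBXN9 1 and 2, against 1 and 0 in control 1 and 2. Cd68, a lysosomal protein of macrophages, had 115 and 173 counts in UBXN9 1 and 2, against 133 and 122 in control 1 and 2. Lyz2, lysozyme, had 63 and 82 counts in UBXN9 1 and 2, against 29 and 14 in control 1 and 2.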
